A study of Homo sapiens with 6 samples.

Results

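The genes described here encode the subunits of the oxidative phosphorylation (OXPHOS) complexes that are made from nuclear DNA. They were chosen by symbol alone, from the names of the NDUF (complex I), SDH (II), UQCR (III), COX (IV) and ATP5 (V) genes. No measured value entered this rule, though it was set with earlier results of these data known. The deposited table held 79 such symbols among 27381 genes. Of these, 78 reached 1 FPKM (fragments per kilobase of transcript per 1000000 mapped fragments, a level scaled for transcript length and library size) in at least 1 column and were compared, as were 12822 genes of the whole table. The exception was ATP5L2, which was listed at 0 in every column. By common knowledge of the enzymes, 75 of the 79 symbols name subunits and 4 do not, namely ATP5L2, the pseudogene ATP5EP2, ATP5S and ATP5SL.

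All samples were DU145 cells, a line from a metastatic, castration-resistant human prostate cancer. The 3 conditions were Scr (cells given Cas9 with a scrambled single guide RNA), CD24 KO and RCC2 KO (cells given Cas9 with guides to CD24 or RCC2), with 2 libraries in each condition. CD24 encodes a glycosylphosphatidylinositol-anchored surface protein and RCC2 a protein of chromosome condensation and cell division. In the study's methods, cells of every condition carried a plasmid that expressed Cas9 with green fluorescent protein. They were sorted for the fluorescence and expanded as single clones. How many clones gave the libraries of a condition is not stated, so clone and condition cannot be told apart.

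The table gave 1 value per gene and condition, and whether the RCC2 KO value stands for both libraries is not stated. No spread between libraries could therefore be had, no p-value is given, and every difference below is without a replicate check. Fragment counts were not given, so the depth is unknown. A difference was taken as log2(FPKM + 1) in one column minus that in another, a scale that understates the change of low genes, and a gene was counted as past the fold minimum at 1.5-fold on this scale.

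The targeted genes went against the labels at the RNA level. CD24 was at 93.2 FPKM in Scr, 309 under the label CD24 KO and 214 under the label RCC2 KO. For RCC2 the levels in the same order were 37.8, 14.2 and 41.8 FPKM, the lowest being in the libraries labelled CD24 KO. The study describes checks of the edited lines by DNA sequencing, blotting of protein and flow cytometry, which are not part of the table. The conditions are named by their labels throughout. Of the 5 epithelial markers, KRT8 (336, 149 and 348 FPKM), KRT18 (293, 141 and 305 FPKM) and EPCAM (58.9, 44.9 and 58.6 FPKM) were lower than Scr in the column labelled CD24 KO, and KRT19 (83.5, 113 and 107 FPKM) and CDH1 (27.9, 52.6 and 23.7 FPKM) were higher there. The luminal prostate marker KLK3 was listed at 0 in all 3 columns. Of the leukocyte, endothelial and fibroblast markers, 0 reached the minimum of 1 FPKM. The columns summed to 451272, 388764 and 447005 FPKM, and the ribosomal RNA gene RNR2 was listed at 0 only in the column labelled CD24 KO, against 26884 and 22704 FPKM. The part of these features in the differences below was not tested.

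Oxidative phosphorylation passes electrons from NADH through complex I, or from succinate through complex II, to coenzyme Q, then through complex III and cytochrome c to oxygen at complex IV. Complexes I, III and IV pump protons across the inner mitochondrial membrane, and complex V, the ATP synthase, lets them return and makes ATP. Complex II is built from nuclear genes alone, whereas the other complexes also hold subunits encoded by mitochondrial DNA, which were not analysed here.

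The promoters of these genes are known for binding sites of NRF1, of ETS factors such as GABP, and of YY1, so these letters were searched in the 300-base RefSeq promoter windows (GRCh38.p14) of the 64 members that had one. The motifs were GCGCATGCG for NRF1, CCGGAAG for ETS and ATGGCGGC for YY1, on both strands. A match that overlaps an earlier one was not marked, as in NDUFB4 and ATP5C1, where one on the other strand ends 1 base after the capitals. The following stretches, all upstream of the annotated start, show the marked motifs in capitals. There are 1 to 3 examples of each in members of complexes I, III, IV and V.
COX8A (chr11:63974572-63974619, + strand): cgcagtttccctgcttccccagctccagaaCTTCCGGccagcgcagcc
UQCR11 (chr19:1605523-1605609, - strand): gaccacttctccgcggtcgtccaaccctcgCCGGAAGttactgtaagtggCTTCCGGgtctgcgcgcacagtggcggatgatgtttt
NDUFS6 (chr5:1801331-1801399, + strand): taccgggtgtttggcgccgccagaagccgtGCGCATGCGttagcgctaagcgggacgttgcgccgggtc
NDUFB4 (chr3:120596147-120596215, + strand): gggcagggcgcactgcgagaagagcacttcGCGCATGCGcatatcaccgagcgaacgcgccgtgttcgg
ATP5C1 (chr10:7788125-7788176, + strand): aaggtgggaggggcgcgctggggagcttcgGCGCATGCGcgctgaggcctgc
NDUFS8 (chr11:68030474-68030541, + strand): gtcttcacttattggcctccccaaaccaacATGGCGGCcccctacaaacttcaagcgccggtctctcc
The capitals in COX8A and in the second site of UQCR11 are the ETS letters read on the other strand.

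The NRF1 letters were in 10 of the 64 windows (15.6%), against 3.90% of 9752 protein-coding genes compared and 2.10% of all 27305 promoters. ETS letters were in 19 (29.7%), against 20.2% and 10.7%. YY1 letters were in 12 (18.8%), against 6.55% and 3.21%. These shares are descriptions, and a match is neither a bound site nor a cause.

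The members were among the well-expressed genes of the line. Their median level was 83.6 FPKM in Scr, 60.1 in the libraries labelled CD24 KO and 82.9 in those labelled RCC2 KO. Their summed level was 8547, 6404 and 8640 FPKM, or 1.89%, 1.65% and 1.93% of the column. The sum was thus 0.749 times that of Scr in the column labelled CD24 KO and 1.01 times in that labelled RCC2 KO. The most abundant was ATP5B, the catalytic beta subunit of the ATP synthase, and the least abundant subunit was NDUFA5 of complex I, at 7.52, 7.70 and 7.43 FPKM. Of the summed level of the 75 subunits in Scr, complex V held 36.5%, complex I 32.4%, complex IV 18.4%, complex III 9.49% and complex II 3.33%.

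**Figure D1:**
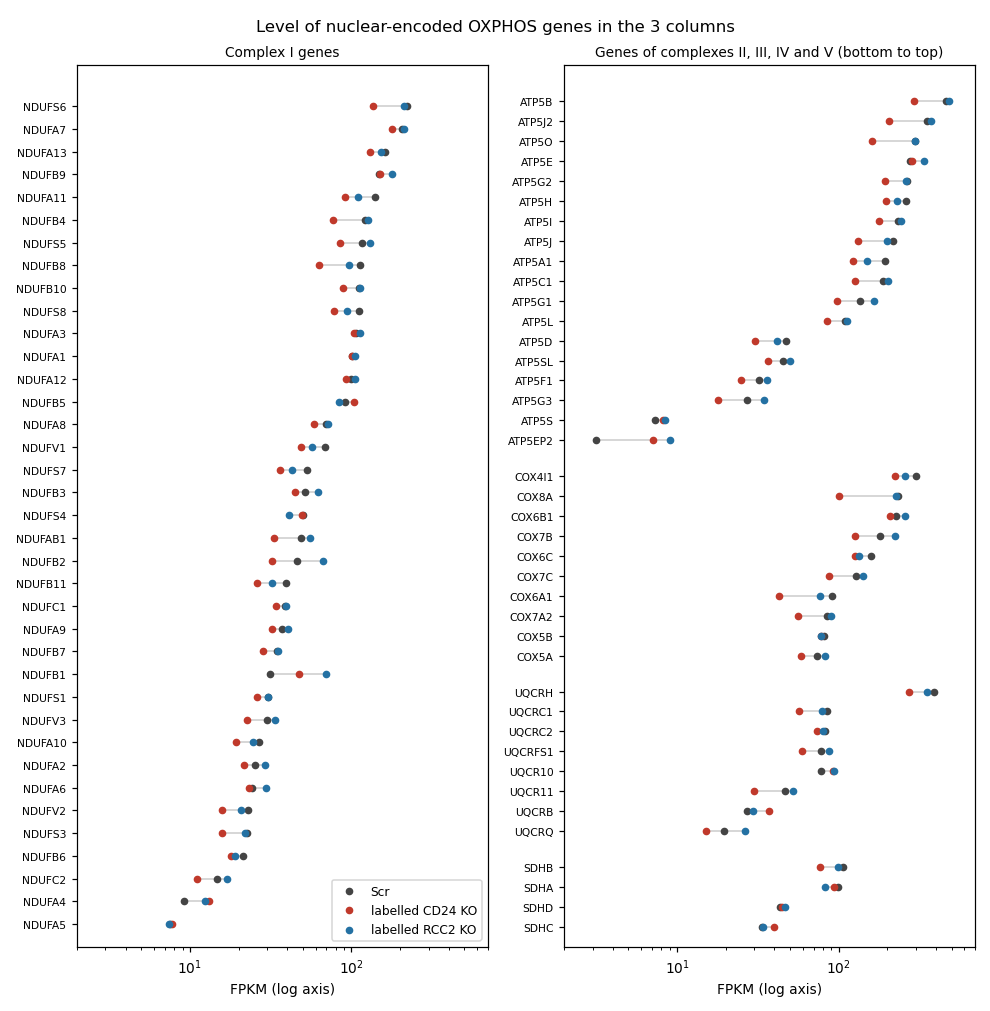
FPKM (log axis) of 77 of the 78 genes compared in Scr (grey), the libraries labelled CD24 KO (red) and those labelled RCC2 KO (blue), 1 value per gene and condition, with a line from the lowest to the highest. The red point was the lowest of the 3 for 61 of the 77 genes drawn.

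In the libraries labelled CD24 KO, 65 of 78 members were lower than in Scr and 13 were higher. The background share of genes that were lower by any amount was 52.9%. Among genes with a mean of at least 20 FPKM it was 65.4%, and 62 of the 71 members of that kind (87.3%) were lower. The members' median difference was -0.38 (quartiles -0.54 and -0.13, SD over genes 0.36), against -0.03 over all genes compared and -0.17 over the 4168 genes with a mean of at least 20 FPKM. The shift was thus wide and small. Past the fold minimum, 15 members (19.2%) were lower, against 11.6% of all genes, and 2 were higher (NDUFB1 and ATP5EP2), against 9.55%, or 5.69% of genes with a mean of at least 20 FPKM. Among genes with a mean of at least 20 FPKM the background was 18.4%, and the 15 were 21.1% of the 71 members of that kind, so at like levels the share of large changes was near the background. At least 2-fold lower were COX8A and COX6A1, where 5.69% of all genes were past 2-fold in either direction.

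The number of members past the fold minimum, and their split, changed with the scale of the columns. Of those past it, 88.2% were lower on the deposited scale (15 of 17), 71.4% after quantile normalization (5 of 7) and 50% (4 of 8) with every column rescaled to a sum of 1000000. The last rescaling moved the median of all genes to 0.16. Relative to the median of all genes, the members' median was -0.34 on the deposited scale, -0.23 after quantile normalization and -0.34 with rescaled sums.

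In the libraries labelled RCC2 KO, 46 members were higher and 32 lower than in Scr, and the median difference was 0.04 (quartiles -0.12 and 0.17). All genes had a median near 0, with 50.6% lower. No member was lower past the fold minimum, against 3.82% of all genes and 2.04% of those with a mean of at least 20 FPKM. NDUFB1 and ATP5EP2 were higher past it, against 1.45% of all genes and 0.912% of those with a mean of at least 20 FPKM. Both were also at least 2-fold higher, as were 52 of the 12822 genes. In either direction, 1.20% of all genes were past 2-fold.

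Set against each other, the libraries labelled RCC2 KO were higher than those labelled CD24 KO for 70 of 78 members, with a median difference of 0.36. This comparison shares its CD24 KO column with the first and is no separate evidence. Of all genes, 48.3% were lower. Past the fold minimum, 20 members (25.6%) were higher, against 13.8% of all genes. All 20 had a mean of at least 20 FPKM, where they were 28.2% of the 71 members, against a background of 20.7%. No member was lower past it, against 14.1% of all genes and 7.53% of those with a mean of at least 20 FPKM. COX8A and NDUFB2 were past 2-fold, against 8.31%.

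**Figure D2:**
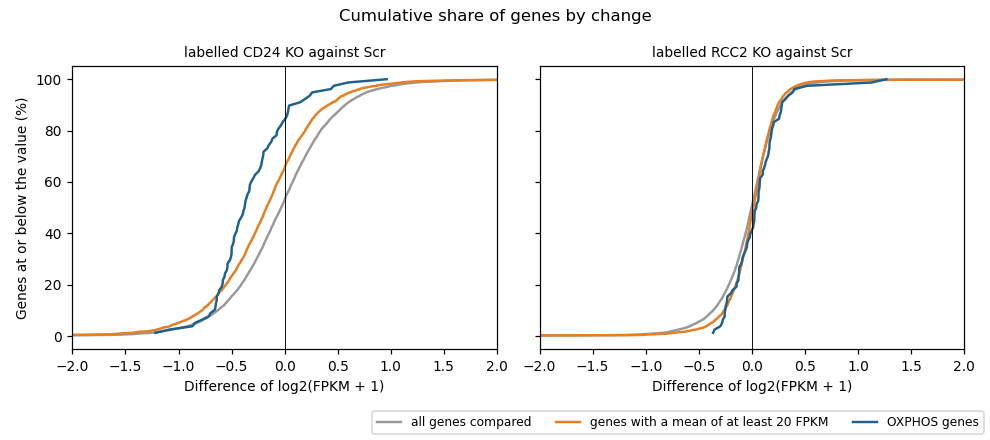
Cumulative share (%) of genes by difference of log2(FPKM + 1) for the libraries labelled CD24 KO (left) and RCC2 KO (right) against Scr, for all genes compared (grey), genes with a mean of at least 20 FPKM (orange) and the OXPHOS genes (blue). On the left the blue curve lies to the left of both others around the middle of its range, with a median of -0.38, and crosses below the orange curve at its low end.

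Complex I, the NADH dehydrogenase, had 38 members compared. Its median difference was -0.30 in the libraries labelled CD24 KO (32 of 38 lower) and 0.02 in those labelled RCC2 KO. Most of the 7 core subunits carry the flavin or iron-sulfur clusters or bind quinone. All 7 were lower in both columns, with medians of -0.50 and -0.13, though NDUFS1 differed by only -0.002 labelled RCC2 KO. Of all genes, 52.9% and 50.6% were lower. Both differences use the same Scr value of each gene, so the 2 columns are not separate evidence. Over the 31 accessory subunits the medians were -0.23 and 0.06.

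Of the core subunits, NDUFS7, which carries the last iron-sulfur cluster, was at 53.0 FPKM in Scr, 36.0 labelled CD24 KO and 43.0 labelled RCC2 KO, a difference of -0.54 in the former. It was lowest in the column labelled CD24 KO.

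The accessory subunit with the largest decrease was NDUFB8, at 113, 62.7 and 96.4 FPKM (-0.85 labelled CD24 KO). NDUFS6, a zinc-binding subunit and the most abundant complex I member in Scr, was at 222, 137 and 211 FPKM. NDUFB4 was at 122, 77.1 and 127 FPKM. In these 3 genes the column labelled CD24 KO was the lowest, and that labelled RCC2 KO stood at 0.850 to 1.04 times Scr. NDUFA11 was at 141, 91.0 and 109 FPKM, with both columns below Scr. NDUFA7, the second most abundant, was at 206, 179 and 212 FPKM. NDUFS5 was at 116, 85.0 and 130 FPKM, and NDUFAB1, the mitochondrial acyl carrier protein, at 48.7, 33.2 and 55.3 FPKM, and these 2 passed the minimum only between the knockout columns.

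Other accessory subunits went another way. NDUFB1 was at 31.1 FPKM in Scr, 47.5 labelled CD24 KO and 69.2 labelled RCC2 KO, differences of 0.60 and 1.13 from Scr. NDUFB2 was at 45.8, 32.4 and 66.2 FPKM, below Scr in one column and above it in the other. NDUFA4, which is named with complex I but is now regarded as a complex IV subunit, was at 9.22, 13.1 and 12.3 FPKM. The other 26 complex I genes ranged from -0.58 to 0.19 labelled CD24 KO and from -0.28 to 0.28 labelled RCC2 KO. NDUFB11 lay just outside the fold minimum at -0.58, and COX7A2 of complex IV just inside it at -0.59.

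Complex II, succinate dehydrogenase, also a citric acid cycle enzyme, had a median difference of -0.02 labelled CD24 KO and -0.04 labelled RCC2 KO. SDHA, the flavoprotein, was at 99.2, 94.1 and 82.9 FPKM. SDHB, the iron-sulfur subunit, was at 107, 77.1 and 99.6 FPKM. The membrane anchors were SDHC, at 33.6, 39.8 and 34.2 FPKM, and SDHD, at 43.3, 44.6 and 46.6 FPKM. None of the 4 passed the fold minimum, and SDHB alone was lower by more than 0.1 labelled CD24 KO. The sign of the complex II median labelled CD24 KO changed with the scale of the columns and is given with the limits.

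Complex III, the cytochrome bc1 complex, had medians of -0.37 labelled CD24 KO and 0.15 labelled RCC2 KO over 8 members. Over the 5 left without UQCRH and the members that share a locus, the former was -0.15. UQCR11 was at 46.4, 29.98 and 52.2 FPKM (-0.61 labelled CD24 KO). UQCRC1, a core protein, was at 85.2, 56.6 and 78.4 FPKM, and UQCRH, the hinge protein, at 390, 272 and 353 FPKM. The single-exon copy UQCRHL was at 398, 325 and 386 FPKM, so reads could be split between the copies and the level of UQCRH is uncertain. UQCRB was higher labelled CD24 KO, at 27.1, 37.0 and 29.7 FPKM, and UQCR10 was at 77.5, 92.9 and 93.0 FPKM. UQCRQ was at 19.6, 15.1 and 26.2 FPKM. The subunits of this complex thus did not all move one way.

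**Figure D3:**
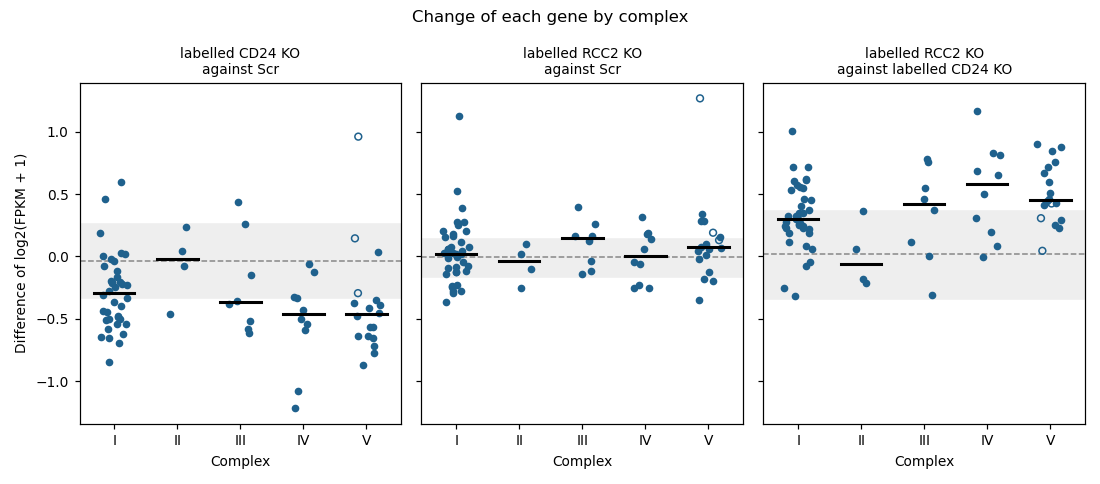
Difference of log2(FPKM + 1) of each gene by complex (filled circles, subunits, open circles, members that are not subunits) in the 3 comparisons, with the complex median as a black bar. The grey band gives the quartiles of all 12822 genes and the dashed line their median. Complex IV had all 10 genes below 0 in the left panel, and complex II a median of -0.02.

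Complex IV, cytochrome c oxidase, was lower in 10 of 10 members in the libraries labelled CD24 KO (median -0.46), with a median of 0.01 labelled RCC2 KO. With NDUFA4 counted here, 10 of 11 were lower and the median was -0.43. COX8A, a small subunit of the inner membrane, was at 234 FPKM in Scr, 99.99 labelled CD24 KO and 226 labelled RCC2 KO, a difference of -1.22 in the former. COX6A1 was at 91.6, 42.7 and 76.6 FPKM (-1.08). In both genes the column labelled CD24 KO stood at under 0.5 times Scr, the largest decreases of the 78 members.

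COX7A2 was at 85.3, 56.2 and 89.1 FPKM. COX7B was at 180, 127 and 225 FPKM, and COX7C at 128, 87.5 and 141 FPKM. In these 3 small subunits, the libraries labelled RCC2 KO were above Scr. COX4I1, the most abundant complex IV member in Scr, was at 301, 223 and 257 FPKM, and COX6C at 160, 127 and 134 FPKM, with both columns below Scr. COX6B1, at 226, 207 and 258 FPKM, and COX5B, at 81.3, 78.1 and 78.1 FPKM, had the smallest differences labelled CD24 KO. The remaining subunit, COX5A, had a difference of -0.33.

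Complex V had 15 subunits, of which 14 were lower labelled CD24 KO (median -0.56) and 10 were higher labelled RCC2 KO (median 0.06). The catalytic F1 head (5 genes) had a median of -0.64 and the peripheral stalk that holds it still (4 genes) -0.56. The median was -0.48 for the c-ring that turns with the protons (3 genes) and -0.39 for the small membrane subunits (3 genes). The parts overlapped, with ATP5E of the head at 0.04 and ATP5J2 of the membrane subunits at -0.78, so no order of the parts is drawn.

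In the head, ATP5B was at 461, 293 and 482 FPKM and ATP5A1, the alpha subunit, at 192, 123 and 151 FPKM. ATP5C1, the gamma subunit, was at 188, 127 and 202 FPKM, and ATP5D, the delta subunit, at 47.6, 30.2 and 41.3 FPKM. These 4 were lowest labelled CD24 KO, whereas ATP5E, the epsilon subunit, was at 277, 284 and 338 FPKM. ATP5E shares its locus with PRELID3B and a readthrough gene in the table.

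In the stalk, ATP5O was at 296, 162 and 298 FPKM (-0.87 labelled CD24 KO) and ATP5J at 217, 132 and 199 FPKM (-0.72). Both lie on chromosome 21, where the median of all 128 genes compared was -0.41 in that column. ATP5J2, a membrane subunit, was at 354, 206 and 372 FPKM (-0.78). It shares its locus with 4 other genes in the table.

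ATP5G1, ATP5G2 and ATP5G3 encode the same mature c subunit. They were at 136, 97.2 and 165 FPKM, at 264, 193 and 261 FPKM, and at 26.9, 17.9 and 34.4 FPKM. Their sum was 427, 308 and 460 FPKM, and ATP5G2 held 61.9%, 62.7% and 56.6% of it. All 3 genes were lowest labelled CD24 KO, and the make-up of the sum differed little between that column and Scr.

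**Figure D4:**
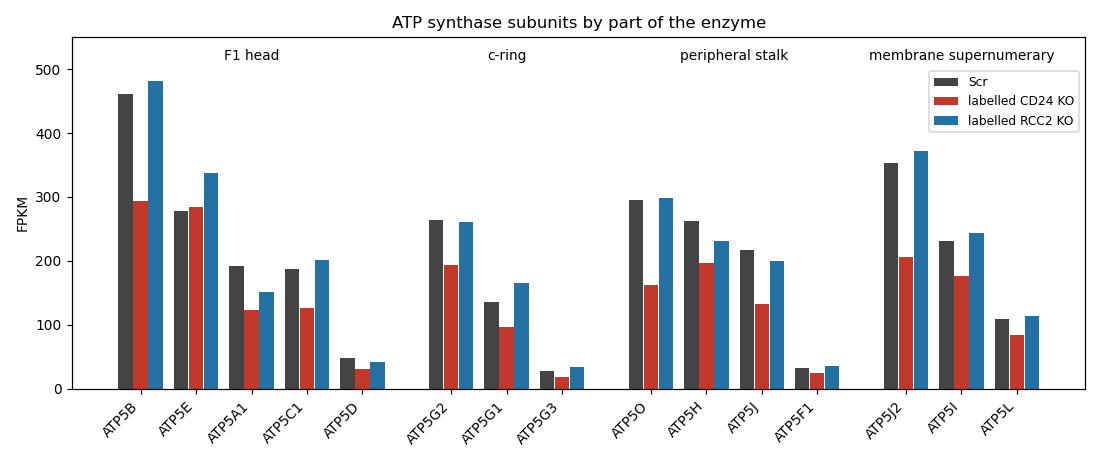
FPKM of the 15 ATP synthase subunits by part of the enzyme in Scr (grey), the libraries labelled CD24 KO (red) and those labelled RCC2 KO (blue), 1 value per bar with no error. The red bar was the lowest of the 3 in every subunit other than ATP5E, at 284 FPKM against 277 in Scr.

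The members that are not subunits were low or near Scr. ATP5EP2 was at 3.14, 7.07 and 8.98 FPKM, and reads of ATP5E could be placed on this copy. ATP5S was at 7.26, 8.14 and 8.43 FPKM and ATP5SL at 45.3, 36.7 and 49.7 FPKM.

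The motif groups were compared with the changes. Labelled CD24 KO, the 10 members with the NRF1 letters had a median of -0.56 and the 54 without -0.35. With 1 more C at the end of the NRF1 letters, the string that was searched first, 4 members held them with a median of -0.41, against -0.38 for the other 60. The gap between the groups therefore came with the shorter string, which was adopted after the values of the longer one were known. For the ETS letters the medians were -0.39 with and -0.38 without, and for YY1 -0.39 and -0.38. With AAN before the YY1 letters, also the string searched first, 9 members held them with a median of -0.47, against -0.38 for the other 55. Neither gap is thus stable to the length of the string.

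Genes that serve the same pathway were given as lists. Of 47 assembly factors, which build the complexes, 34 (72.3%) were lower labelled CD24 KO (median -0.21), against 52.9% of all genes. Past the fold minimum, 14.9% of them were lower, against 11.6% of all genes. The 15 genes of electron carriers and coenzyme Q had a median of -0.33, and in it cytochrome c, CYCS, was at 37.5, 22.7 and 45.5 FPKM. The 17 genes of the citric acid cycle and pyruvate dehydrogenase had a median of -0.25. Over these 3 lists, the medians labelled RCC2 KO lay between -0.01 and 0.04.

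All 10 genes of mitochondrial DNA maintenance were lower labelled CD24 KO (median -0.33), though POLG2, TFB1M and TEFM differed by only -0.05 each. Only 1 of the 10 passed the fold minimum, namely SSBP1, the single-strand binding protein, at 212, 85.8 and 210 FPKM. All 7 regulators compared were lower too (median -0.52), where 52.9% of all genes were lower. Among them were GABPB1, a GABP subunit, at 19.2, 8.41 and 21.9 FPKM, and NRF1 at 8.004, 5.20 and 9.67 FPKM. PPARGC1B, at 1.29, 0.705 and 1.47 FPKM, was also among them. It reached the minimum of 1 FPKM only outside the column labelled CD24 KO, so the filter favoured its count as lower. PPARGC1A, a further regulator on the list, was at 0, 0.080 and 0 FPKM and was not compared. Of 6 more genes of the pathway outside the symbol rule, not all of them subunits, 3 were lower labelled CD24 KO and 3 higher. The lower were CYC1, C14orf2 and USMG5. The higher were ATPIF1, COX7A2L and COX6B2, and COX6B2 was low at 0.889, 2.03 and 0.163 FPKM. COX6B2 reached the minimum of 1 FPKM only in the column labelled CD24 KO, so the filter favoured its count as higher. COX7A2L was at 201, 304 and 197 FPKM and CYC1, cytochrome c1, at 86.0, 56.5 and 80.8 FPKM.

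Lower medians labelled CD24 KO were not particular to OXPHOS genes. The median was -0.36 over 77 mitochondrial ribosomal protein genes, -0.68 over 35 proteasome genes and 0.04 over 74 cytosolic ribosomal protein genes.

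**Figure D5:**
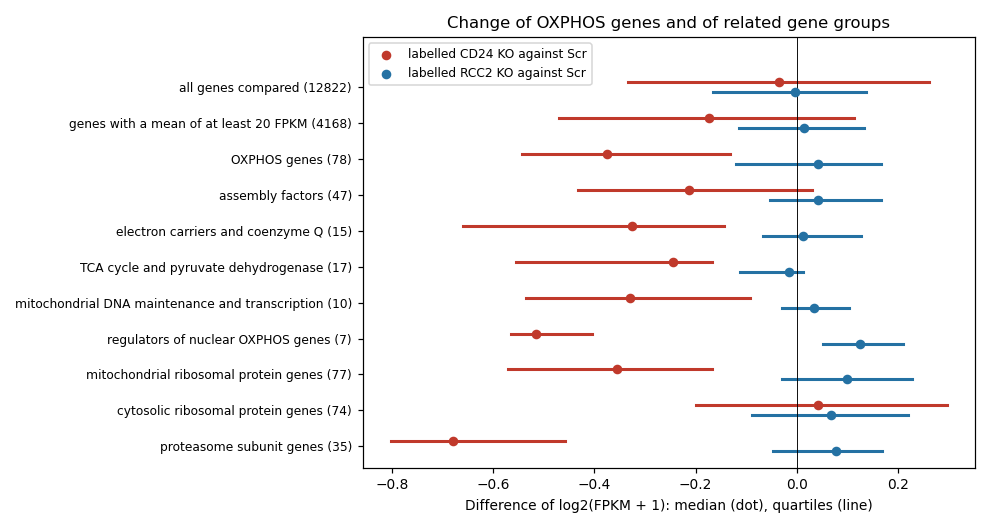
Median (dot) and quartiles (line) of the difference of log2(FPKM + 1) from Scr for the OXPHOS genes and related groups (number of genes in brackets), in the libraries labelled CD24 KO (red) and RCC2 KO (blue). The red median of the OXPHOS genes, -0.38, lies near that of the mitochondrial ribosomal protein genes, -0.36, and above that of the proteasome genes, -0.68.

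Members have short transcripts, with a median length of 703 bases (77 with a value, GENCODE release 29) against 1817 for all genes compared. Among genes of up to 1000 bases with a mean of at least 20 FPKM, the median difference labelled CD24 KO was -0.19 over 1346 genes, and -0.41 over the 57 members of that kind. The 44 members with processed pseudogenes had a median of -0.39 and the 34 without -0.36.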

How the data were processed

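RNA of DU145 clones was sequenced after TruSeq library preparation. The submitters' processing notes name HISAT, StringTie, Cufflinks and GATK, and their versions and the genome build are not given in the sources used here. The deposited values are FPKM per gene, which the authors gave as 1 column per condition. Whether the RCC2 KO column joins both libraries is not stated. No count was available, so depth and counting error are unknown and no test was run.

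Differences were taken on log2(FPKM + 1), with a pseudocount of 1, among genes of at least 1 FPKM in at least 1 column, with fold minimums of 1.5 and 2 (Python 3.11.15, NumPy 2.4.6, pandas 2.3.3). The members and lists were chosen with earlier results of these data known. Named members are the highest and the most changed of each complex, all past 1.5-fold, the SDH and ATP5G genes, and those that are not subunits. Only 11 of 78 members overlapped their GRCh38 position, so the table's coordinates were not joined to that build, and promoters were matched by symbol. The NRF1 and YY1 strings were shortened after a first search. Alternatives were the pseudocount, the filter, the scaling and the membership. The computation was tested on simulated data. The values of 1 member and 1 marker are not reported here.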

Additional observations from a re-analysis of the deposited data

How the results depend on the processing

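No paired analysis was possible because the table holds 1 value per condition, and for the same reason no library could be left out. Labelled CD24 KO against Scr, the members' median of -0.38 became -0.23 after quantile normalization, -0.17 with columns rescaled to a sum of 1000000 and -0.22 with columns rescaled without RNR1, RNR2 and genes at 0, and the 17 members past 1.5-fold became 7, 8 and 9. Between the knockout columns, the median of 0.36 became 0.22, 0.16 and 0.21, and the count of 20 became 9, 8 and 10, or 13 without UQCRH and members that share a locus (54 members left). Labelled RCC2 KO against Scr, the count of 2 became 1 with subunits only. The complex II median labelled CD24 KO turned to 0.17 (quantile), 0.027 (median centring), 0.20 (sum of 1000000) and 0.15 (without RNR1, RNR2 and genes at 0). Without UQCRH and shared loci, complex IV labelled RCC2 KO turned to -0.047 and complex II between the knockout columns to 0.061, while the complex III medians went from -0.37 to -0.15 labelled CD24 KO and from 0.42 to 0.11 between the knockout columns. The cause was not tested, beyond the smaller number of members in the last setting. The rescaling without RNR1 and RNR2, the set without shared loci and the longer motif strings were chosen after seeing the data. The unknown depth limits every value, most of all those of low genes.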

Other observations

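By chromosome, all 11 members on chromosome 19 were lower labelled CD24 KO (median -0.31, against -0.04 over 913 genes there). Both members on chromosome 18, ATP5A1 and NDUFV2, were lower labelled RCC2 KO, with a median of -0.24, and the 191 genes compared on that chromosome had a median of -0.21.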
